A study of Mus musculus with 189 samples.

Results

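Eif1a encodes eukaryotic translation initiation factor 1A, and its transcript was followed here from the MII oocyte to the 32-cell embryo of the mouse. It is 1 gene of the 192 assayed, of which 36 failed quality control and were left out, and its row was read in all 189 samples. Cycle thresholds (Ct) were measured by quantitative PCR on microfluidic chips. The main samples comprised 11 MII oocytes, 14 zygotes, 21 samples of the 2-cell, 7 of the 3-cell, 12 of the 4-cell, 27 of the 8-cell, 26 of the 16-cell and 50 of the 32-cell stage. All came from superovulated F1 females (C57BL/6 x DBA/2), mated to C57BL6 males where embryos were collected, and embryos were cultured in KSOMaa under low oxygen. No group carried a transgene or treatment, and the age of the animals and the hour at which 2-cell embryos were taken are not given in the sources used here. From the 2-cell stage on, samples were single blastomeres, small groups of blastomeres or whole embryos, and several came from 1 embryo, so that stages were compared over 58 oocytes or embryos. Whole embryos of the 16- and 32-cell stages (3 each), 1 isolated inner cell mass, 1 isolated trophectoderm, embryonic stem cell (ESC) RNA and 3 samples that the study had removed were kept outside the main set.

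The factor eIF1A binds the small ribosomal subunit, helps to assemble the initiation complex and takes part in the scanning for the start codon. The oocyte stores maternal transcripts and is transcriptionally silent, and the major wave of embryonic genome activation in the mouse falls in the 2-cell stage. Eif1a is long known as one of the early transcripts of this wave, and it is widely used as a marker of it. A closely related gene, Eif1ax, lies on the X chromosome, and whether the assay also amplifies its transcript was not tested.

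Values are given on 2 scales. The raw value is 30 minus the Ct, in cycles, so that a higher value means more transcript in the tube, and 0 means that no signal was seen. The normalized value is the raw value minus the mean raw value of the control genes Hnrnpr, Ssu72 and Ube2e1, on a log2 scale. The Ct of a single chip reaction per gene and sample sets the precision, and in 3 samples of 200 pg ESC RNA the SD of raw Eif1a was 0.16 and that of normalized Eif1a 0.054. With 25 to 200 pg of ESC RNA (4 samples), each doubling of RNA moved raw Eif1a by 1.13 cycles and the control mean by 1.13, and with 32 to 800 pg (3 samples) by 1.12 and 1.12. A cycle was therefore not exactly 1 doubling in these series, and fold changes below assume that it was.

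Eif1a was low in oocytes and zygotes and high from the 2-cell stage on. Raw Eif1a in the 11 MII oocytes ranged from 8.74 to 12.56 with a median of 10.35. In the 14 zygotes it ranged from 8.19 to 10.95 where a signal was seen, with a median of 10.18 over all 14, and zygote replicate 13 gave no signal. This zygote had control genes at 16.99 and 15 undetected genes, within the 12 to 19 of the 14 zygotes, and 13 genes in all lacked a signal in exactly 1 zygote, spread over 9 zygotes. On the normalized scale, MII oocytes lay between −8.20 and −4.63 (mean −6.69 ± 0.99, SD, n = 11), and the 13 zygotes with a signal between −8.99 and −6.08. With the zygote without a signal, at −16.99, the mean of zygotes was −7.78 ± 2.80 (SD, n = 14), and −7.07 ± 0.93 (n = 13) without it. Oocytes and zygotes thus overlapped over most of their range, and 24 of these 25 samples lay above −10, the level the study used as the limit of expression.

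**Figure D1:**
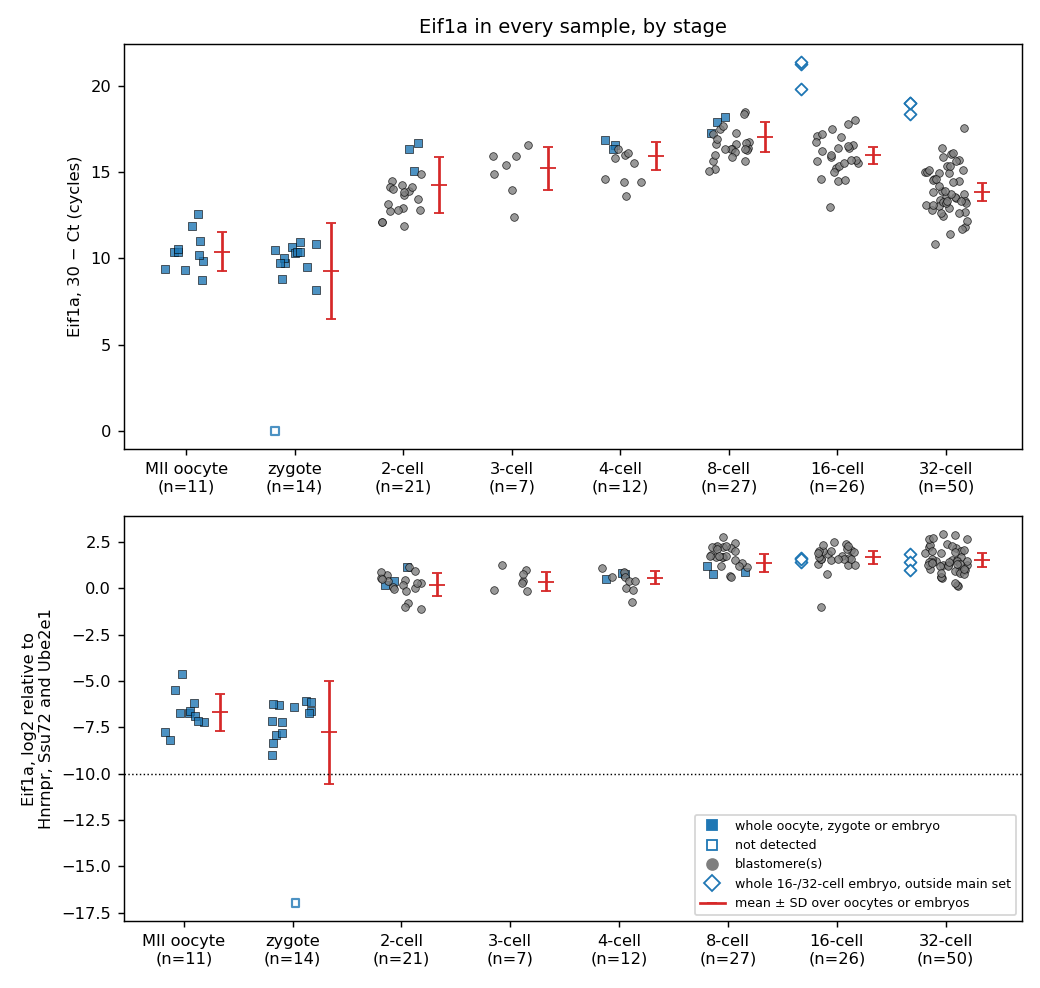
Eif1a in each sample of the main set, as 30 minus Ct in cycles (top) and in log2 relative to Hnrnpr, Ssu72 and Ube2e1 (bottom), by stage, with squares for whole oocytes, zygotes and embryos, circles for blastomeres, diamonds for whole 16- and 32-cell embryos, a dotted line at −10, and the mean ± SD over oocytes or embryos in red. The 25 oocytes and zygotes lie at or below −4.63 on the normalized scale and the 143 later samples at or above −1.12, whereas on the raw scale single 32-cell blastomeres reach down to 10.83.

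From the zygote to the 2-cell stage Eif1a rose on either scale. The 21 samples of the 2-cell stage ranged from −1.12 to 1.16 on the normalized scale, with a median of 0.30, and all 21 gave a signal. The lowest of them lay 4.96 above the highest zygote. The mean over 8 embryos was 0.21 ± 0.62 (SD). The 8 include 11 blastomeres of unnamed embryos, averaged as if from a single embryo. They also include an average of 3 samples that share an embryo name, of which 2 are named blastomeres. The difference from zygotes was 7.99 with a standard error (SE) of 0.67 (limma, adjusted p = 2.31e-15, 14 zygotes and 8 embryos so counted), or about 254-fold. Without the zygote that gave no signal it was 7.28. An exact permutation test, two-sided, over 319770 arrangements gave p = 3.13e-06, the smallest it can give. On the normalized scale 68.6% of genes were called at this step, 46 higher and 61 lower. The median of all genes tested was −0.33, and the difference of Eif1a was the 10th highest. That rank was 5th when values below −10 were set to −10.

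Whole embryos gave the content of 1 embryo without any control gene. Raw Eif1a was 16.71, 16.36 and 15.10 in the 3 whole 2-cell embryos, so that every embryo stood above every zygote. The rise was 6.77 cycles (SE 1.17, limma adjusted p = 3.52e-06, 14 zygotes and 3 embryos), or about 109-fold, and 6.05 without the zygote that gave no signal. An exact permutation test, two-sided, over 680 arrangements gave p = 0.00147, the smallest it can give. Here 77.6% of the genes were called, of which 28 were higher and 93 lower, and the median difference was −1.79, so that Eif1a moved against most of the panel. Of the control genes, raw Ssu72 fell by 1.87 and raw Ube2e1 fell by 2.38 cycles from zygotes to whole 2-cell embryos (limma adjusted p = 5.43e-06 and 5.31e-05), and the difference of Hnrnpr was −0.51 (adjusted p = 0.241). These falls and the median of the panel rest on the 3 whole embryos, whose control means were uneven, at 16.31, 16.19 and 13.94. The embryo at 13.94 was also the one with raw Eif1a of 15.10. Samples of the 2-cell stage fell into a series marked A in its titles, which held all blastomere samples, and 3 whole embryos without the mark. The sample list of the study gives this mark to some zygotes as well, and what it stands for is not given in the sources used here. Within the marked series (11 zygotes) the normalized rise was 7.76, and outside it (3 zygotes and 3 embryos) it was 8.37, with limma adjusted p = 8.46e-11 and 6.64e-16. Both fits took their spread from the other stages as well, so the second p does not rest on 3 zygotes and 3 embryos alone. The zygote without a signal was in the marked series.

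**Figure D2:**
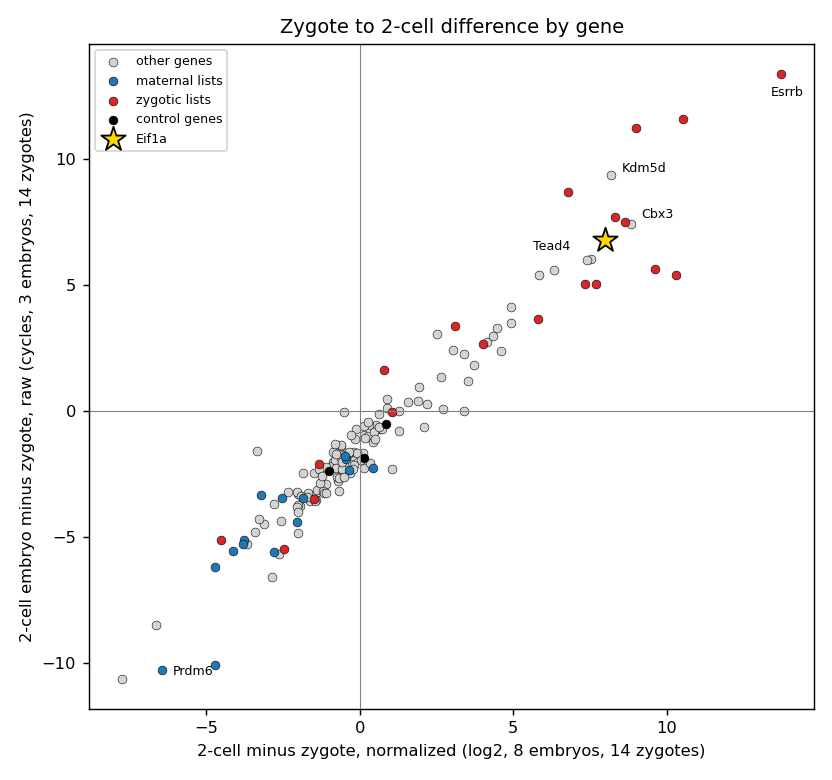
Difference between the 2-cell stage and zygotes for each gene tested, normalized (x axis, log2, 8 embryos and 14 zygotes) against raw in whole embryos (y axis, cycles, 3 embryos and 14 zygotes), with the gene lists of the study in colour and Eif1a as a star. Eif1a sits at 7.99 and 6.77 in the upper right, among genes of the zygotic lists, while the control genes and most of the panel lie below 0 on the raw scale.

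The study's own lists of maternal and zygotic genes give the company in which Eif1a rose. They hold the genes that the study named for a large weight in its main principal components, not all genes it classed as maternal or zygotic. These lists were drawn up on the same samples, so their direction is not independent evidence. Eif1a is itself on the list of predominantly zygotic genes. Of the 11 zygotic genes, 9 rose on the normalized scale and 2 did not pass the test, with a median difference of 7.94. Among them, Esrrb, an orphan nuclear receptor of the pluripotency network, rose by 13.72 (SE 1.08), and Nanog, a homeodomain factor of the same network, by 9.61 (SE 0.77). Both were seen in few zygotes (5 and 2 of 14), and with values below −10 set to −10 the differences were 8.88 and 3.88 and the median of the list 3.88, with 8 genes higher and 1 lower. Fgf4, a growth factor ligand, gave a signal in 1 of 14 zygotes and 9 of 21 samples of the 2-cell stage, with a rise of 8.99 (SE 1.28) that was 3.59 on the floored values. Tet1, an enzyme that oxidizes 5-methylcytosine, was seen in 12 zygotes and all 21 samples and rose by 7.68 (SE 0.93), close to Eif1a.

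Of the 10 predominantly zygotic genes, 6 rose with Eif1a among them, 1 fell and 3 did not pass the test, with a median of 3.54, or 3.09 over the 9 genes without Eif1a. With values below −10 set to −10 the median of the 10 was 1.78, with 5 higher and 2 lower. Smyd1, a SET and MYND domain protein, counted as higher although it was seen in no zygote and in 1 of 21 samples of the 2-cell stage, and its floored difference was 0.21. The histone demethylases Kdm4c and Kdm5a are on this list, and like Eif1a each had a signal in 13 of 14 zygotes and in all 21 samples of the 2-cell stage. Kdm4c rose by 8.62 (SE 0.69) and Kdm5a by 8.30 (SE 0.71) on the normalized scale, and by 7.48 and 7.68 cycles in whole embryos. Zfp42, a zinc finger protein of pluripotent cells, rose by 5.79 (SE 0.86). Gata3, a transcription factor of the trophectoderm, fell by 4.51 (SE 0.92). It was seen in all 14 zygotes and in 5 of 21 samples of the 2-cell stage, and on the floored values the difference was −2.74.

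Genes of the maternal lists went the other way at the same step. None of the 4 maternal genes rose, 3 fell and Scml2 did not pass the test, with a difference of 0.42 on the normalized scale. Dazl, a germ cell RNA-binding protein, fell by 3.77 (SE 0.80), and Prdm6, a PR domain protein, fell by 6.43 (SE 0.94). Prdm6 was seen in 11 of 21 samples of the 2-cell stage, and on the floored values its difference was −4.63. Of the 11 predominantly maternal genes, 9 fell and none rose, with a median of −2.77, and Tet3, the methylcytosine oxidase of the oocyte and zygote, fell by 4.11 (SE 0.46). Every member of these lists past the threshold thus had the opposite sign to Eif1a on the normalized scale. On the raw scale of whole embryos 3 and 10 of the maternal lists' genes were lower. The study drew up these lists and that of Eif1a on the same samples, so the opposite signs are a description and not independent evidence.

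Before that step, between MII oocyte and zygote, no change of Eif1a passed the test. The normalized difference was −1.09 (SE 0.61, limma adjusted p = 0.367) and the raw one −1.10 (SE 0.74, adjusted p = 0.556), and 1.92% and 2.56% of genes were called. This value rested on zygote replicate 13, since without it the differences were −0.38 and −0.39. The MII oocyte that the study had removed also gave no Eif1a signal, with control genes at 14.92 against 16.48 or more in the other oocytes and 26 undetected genes against 8 to 17.

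After the 2-cell stage Eif1a stayed near or above the level of the control genes Hnrnpr, Ssu72 and Ube2e1. The 3-cell samples ranged from −0.15 to 1.26 on the normalized scale and the 4-cell samples from −0.75 to 1.12, both within or close to the range of the 2-cell samples. Samples of the 3-cell stage stood 0.15 above those of 2 cells (SE 1.03, limma adjusted p = 0.962), where 8.97% of genes were called, and this sign turned without Ssu72 as control gene. From 2 to 4 cells the normalized difference was 0.38 (SE 0.82, adjusted p = 0.747), where 32.7% were called. Raw Eif1a in whole 4-cell embryos was 16.59, 16.35 and 16.89, which overlapped the 2-cell embryos, with a difference of 0.55 (SE 1.50, adjusted p = 0.998) and 0.641% of genes called.

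At the 8-cell stage Eif1a was higher than at the 4-cell stage by 0.78 (SE 0.84, limma adjusted p = 0.470) on the normalized scale, where 49.4% of genes were called. The SE here came from a spread shared over all stages, which the zygote without a signal widened. With only 4- and 8-cell embryos in the fit the same difference had an SE of 0.25 and an adjusted p of 0.0185, so the call depended on how the spread was estimated. The size depended on the samples too, since it was 0.23 (adjusted p = 0.948) with whole embryos only and 1.23 (adjusted p = 0.490) without them. All 24 single blastomeres of the 8-cell stage lay between 0.63 and 2.75 with a mean of 1.78 ± 0.54 (SD), and the 9 blastomeres of the 4-cell stage between −0.75 and 1.12 with a mean of 0.36 ± 0.56 (SD), so that the ranges overlapped only between 0.63 and 1.12. Whole 8-cell embryos had raw Eif1a of 17.88, 18.22 and 17.27, above each of the whole 4-cell embryos, with a difference of 1.18 cycles (SE 1.50, adjusted p = 0.618) and 25.6% of genes called.

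The 26 samples of 16-cell embryos came from only 2 embryos, and they ranged from −1.02 to 2.53 on the normalized scale with a median of 1.72. The single sample at −1.02 was a blastomere with control genes at 14.01 and 18 undetected genes, the median of its stage. In the 50 samples of 32-cell embryos Eif1a ranged from 0.14 to 2.92 with a median of 1.42. Neither step passed the test on the normalized scale, with 0.32 (SE 1.21, limma adjusted p = 0.911) from 8 to 16 cells and −0.15 (SE 1.21, adjusted p = 0.976) from 16 to 32 cells, where 28.2% and 10.9% of genes were called, and both turned sign under other settings. In single blastomeres, raw Eif1a had a median of 15.68 at the 16-cell stage (20 cells) and 13.25 at the 32-cell stage (32 cells), while samples of 3 cells had medians of 17.50 (3 samples) and 15.21 (2 samples).

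Whole morulae held the most Eif1a signal of all samples. Raw Eif1a in whole 16-cell embryos was 19.80, 21.28 and 21.37, and in whole 32-cell embryos 18.38, 18.99 and 19.03, so that the 3 groups of 8-, 16- and 32-cell embryos did not overlap. The differences were 3.02 cycles (SE 1.50, limma adjusted p = 0.0637) from 8 to 16 cells and −2.02 (SE 1.50, adjusted p = 0.236) from 16 to 32 cells, where 80.1% and 65.4% of genes were called. With undetected values left out the adjusted p was 0.000125 and 0.00818, so both calls depended on how the spread was estimated. The control genes moved alike, from a mean of 16.84 in 8-cell to 19.26 in 16-cell and 17.35 in 32-cell embryos, and the median differences of all genes were 2.79 and −2.46. In such whole samples the number of cells and the RNA per cell cannot be told apart. Isolated inner cell mass and trophectoderm (1 sample each) had normalized Eif1a of 1.23 and 1.59, and ESC RNA, in 10 samples, 2.68 to 3.93.

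Over the main stages the order of normalized means, from low to high, was zygote (−7.78), MII oocyte (−6.69), 2-cell (0.21), 3-cell (0.36), 4-cell (0.59), 8-cell (1.37), 32-cell (1.53) and 16-cell (1.68). The only neighbours in this order whose samples did not overlap were MII oocytes and the 2-cell stage, 3.51 apart at their nearest. All other neighbours overlapped within the spread of their samples. The rise after the 2-cell stage in this order depended on the control genes. Relative to those of the deposited table, 2-cell samples lay between −1.40 and 0.15 and 32-cell samples of the main set between −4.44 and −1.23. Blastomeres that belonged to 1 embryo differed as well. Among the 8 blastomeres of each of 2 complete 8-cell embryos, normalized Eif1a had an SD of 0.41 and 0.61 around means of 2.11 and 1.71.

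Summing blastomeres did not return the level of whole embryos. For the 4 blastomeres of 1 complete 4-cell embryo the log2 sum of Eif1a was 17.54, which is 0.93 above the mean of whole 4-cell embryos, and for the 8 blastomeres of each of 2 complete 8-cell embryos it was 2.73 and 1.38 above. In contrast, the named blastomere pairs of 2 embryos of the 2-cell stage summed to 13.95 and 13.39, which is 2.11 and 2.66 below the mean of whole 2-cell embryos. Control genes deviated in the same direction, by 1.31 at the 4-cell stage, 1.66 and 0.59 at the 8-cell stage, and −2.45 and −2.37 at the 2-cell stage. Raw levels of separated blastomeres and of whole embryos thus could not be set against each other, and the part of cell isolation or series in this gap was not tested.

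Next, single 2-cell blastomeres were examined. Of the 18 samples labelled as 2-cell blastomeres, 15 titles name a blastomere and 3 name only an embryo. Raw Eif1a in the 18 ranged from 11.86 to 14.87 with a median of 13.58 and an SD of 0.88, an 8.10-fold range, and normalized Eif1a from −1.12 to 1.14 with an SD of 0.63, a 4.76-fold range. Both spreads were wider than those of repeated ESC RNA, which however held more transcript. Among the 103 genes seen in all 18 samples, the raw SD of Eif1a was the 4th lowest (median of genes 1.21) and the normalized SD the 32nd lowest (median 0.72). Of the 3 samples whose titles name no blastomere, 2 were the lowest of all, at −1.12 and −0.98, and the third was at 0.28. Without these 3 the normalized SD was 0.49 and the lowest value −0.79.

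Sisters could be compared in 2 embryos. In the embryo labelled e1, raw Eif1a was 12.11 and 13.47, and the control mean was 11.25 and 12.53, so that normalized Eif1a was 0.87 and 0.94. In the embryo labelled e5, raw Eif1a was 12.78 and 11.86 with controls at 12.26 and 11.89, and normalized Eif1a was 0.53 and −0.03. The differences within pairs were thus 0.07 and 0.56. A difference between 2 cells is not on the scale of the SD of 0.49 among the 15 named blastomeres, and 2 pairs allow no test.

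**Figure D3:**
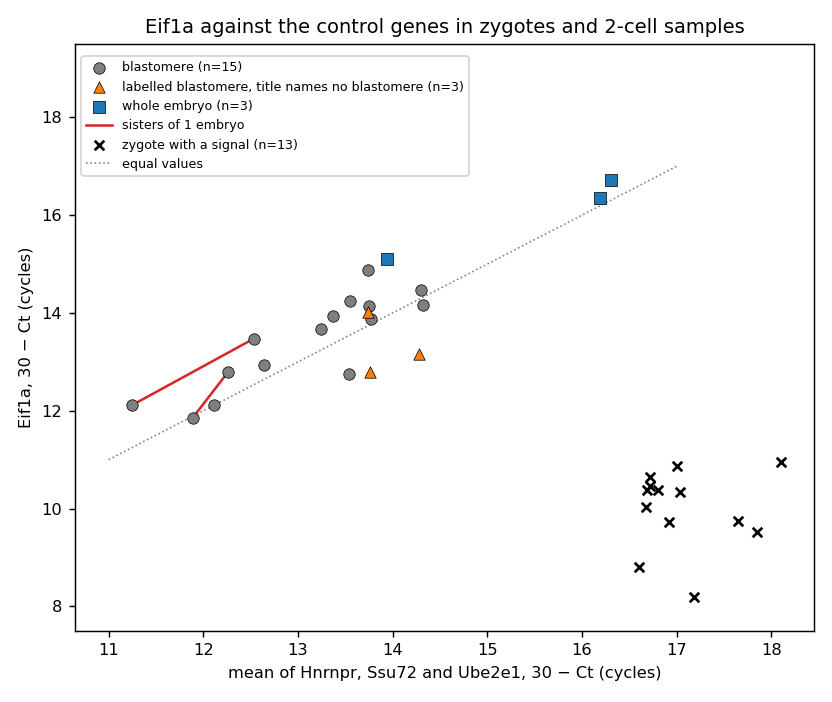
Raw Eif1a (y axis, 30 minus Ct in cycles) against the mean of the control genes (x axis, same unit) in the 21 samples of the 2-cell stage and the 13 zygotes with a signal, with red lines joining sisters of 1 embryo and a dotted line of equal values. The 2-cell samples lie along the line of equal values, within 1.16 of it, and zygotes lie far below it, at normalized values of −6.08 or lower.

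In the 18 blastomere samples raw Eif1a followed the control genes, with Pearson's r of 0.75 and Spearman's rho of 0.66, and with 0.86 and 0.84 in the 15 named blastomeres. These coefficients describe cells that share embryos and differ in the amount of recovered RNA. On the raw scale, the median rho of Eif1a with the 102 other genes seen in all 18 samples was 0.66, and all 102 were positive. After normalization their median was 0.12, with a range from −0.41 to 0.76 and 67 positive values, and relative to the control genes of the deposited table it was −0.0041 with 50 positive.

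The genes with the highest normalized rho in the 18 samples were Jmjd4 (0.76), Ezh2 (0.70), Cbx5 (0.69), Jmjd1c (0.57) and Mll3 (0.57), each seen in all 18. Jmjd4 encodes a JmjC domain protein that hydroxylates a translation termination factor, Ezh2 the H3K27 methyltransferase of PRC2, Cbx5 the heterochromatin protein HP1 alpha, Jmjd1c a protein of the JmjC demethylase family and Mll3 an H3K4 methyltransferase. In the 15 named blastomeres their rho was 0.68, 0.54, 0.62, 0.45 and 0.46, and in the 11 blastomeres of unnamed embryos 0.48, 0.46, 0.65, 0.45 and 0.67. Relative to the control genes of the deposited normalized table, Cbx5 dropped to 0.25 while Jmjd4 stayed at 0.64. The same control mean is subtracted from both genes of each normalized rho. Elf5 and Smyd1, seen in none of the 18 samples, reached 0.42 through it alone. The 5 genes were picked for their rho, and the smaller sets are part of the same samples, so these values are a description.

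The lowest rho were those of Tet3 (−0.56), Phf19 (−0.44), Ssu72 (−0.41), Creb3l2 (−0.38) and Setd1b (−0.38). Phf19, a cofactor of PRC2, and Creb3l2, a membrane-bound transcription factor, were seen in only 8 and 7 of the 18 samples, and Ssu72 is itself 1 of the control genes. All 5 were positive on the raw scale, from 0.11 for Phf19 to 0.52 for Ssu72, as were 142 of 153 genes. Their negative sign was thus seen only after normalization. Relative to the control genes of the deposited table all 5 stayed negative, from −0.72 for Ssu72 to −0.39 for Creb3l2. Tet3 and Phf19 are on the predominantly maternal list. Most genes of the zygotic lists were not seen in all 18 samples. Their rho is not read here as covariation, since a normalized value of an undetected gene is only the negative of the control mean.

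**Figure D4:**
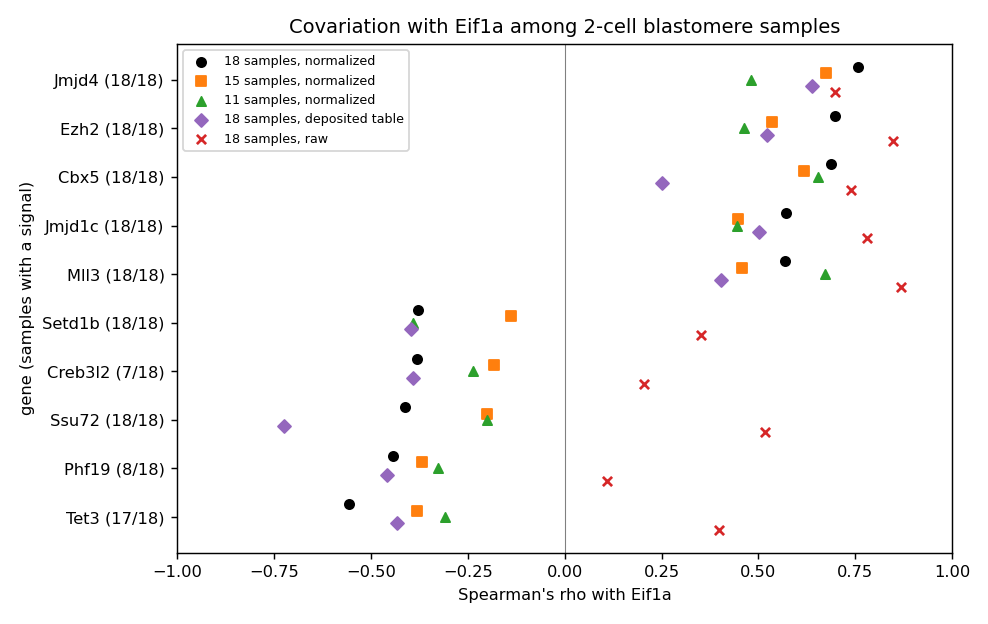
Spearman's rho with Eif1a (x axis) for the 5 highest and 5 lowest genes (y axis, with the number of samples that gave a signal) over the 18 samples labelled 2-cell blastomere, and under other choices of samples and scale. The genes were picked for their rho in these 18 samples, and the other choices use the same samples or part of them. The 5 highest stay above 0 under each choice shown, and the 5 lowest turn positive on the raw scale. All 102 other genes seen in all 18 samples were positive on that scale.

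Across development, the genes whose 8 stage means were most like those of Eif1a were Tead4 (Pearson's r = 0.989), Esrrb (0.988), Cbx3 (0.986), Ehmt2 (0.982) and Yy1 (0.977). With 8 means, such a coefficient mostly reflects the gap between the first 2 stages and the rest. Tead4, a transcription factor needed for the trophectoderm, was seen in all 14 zygotes and stood 7.41 higher at the 2-cell stage, near the 7.99 of Eif1a. Cbx3, which encodes HP1 gamma, stood 8.81 higher, the H3K9 methyltransferase gene Ehmt2 6.31 higher and Yy1, a zinc finger transcription factor, 4.93 higher. Ehmt2 was seen in only 10 of 14 zygotes, and with values below −10 set to −10 its difference was 4.33. Since all 5 were picked for this likeness, these differences are a description.

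**Figure D5:**
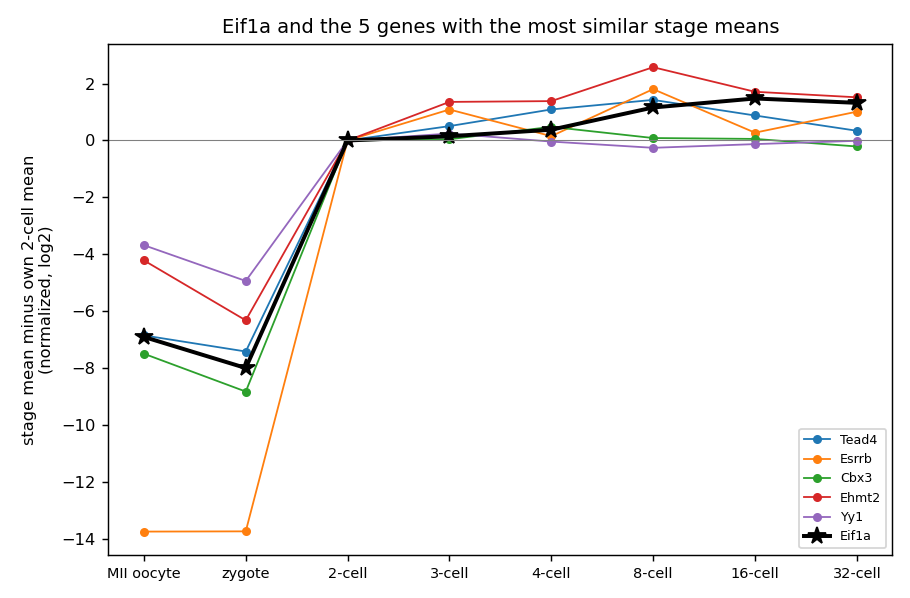
Stage means over oocytes or embryos on the normalized log2 scale, each minus the gene's own 2-cell mean (y axis), for Eif1a in black and the 5 genes with the most similar means, by stage (x axis). All 6 genes are lower in MII oocytes and zygotes, by 3.68 to 13.73 in oocytes, and lie within 2.57 of their 2-cell mean afterwards.

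At the stages where lineages separate, Eif1a showed little relation with lineage genes. Within the 26 samples of 16-cell embryos its rho with the mean of 12 inner cell mass genes minus that of 8 trophectoderm genes was 0.024, and within the 50 samples of 32-cell embryos −0.12. The oocyte markers Dazl, ZP3 and Brdt together had a median normalized mean of 2.98 in MII oocytes, 2.55 in zygotes and −8.50 in the 32-cell stage. At the 2-, 4- and 8-cell stages it was 0.68, −0.20 and −6.02, so these markers were not limited to oocytes and zygotes.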

How the data were processed

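The authors deposited a table of Ct values for 192 assays and 189 samples, a score in PCR cycles from the BioMark software, in which 30 marks no signal, after reverse transcription and 18 cycles of target preamplification. They also deposited a normalized table on a log2 scale, which the values show to be relative to Gapdh, Hspa8 and Lmnb1 (largest deviation 1.03e-08), although the methods name Hnrnpr, Ssu72 and Ube2e1; it served as an alternative here. Raw values were computed as 30 minus Ct, and normalized values relative to the genes of the methods. The 156 assays marked as passed were kept. Chip data have no read depth.

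Stages were compared with limma 3.58.1 in R 4.3.3 (lmFit and eBayes, two-sided, Benjamini-Hochberg over 156 genes, threshold 0.05) over 58 oocytes or embryos with blastomeres averaged, and over 40 whole oocytes, zygotes and embryos for raw values. Blastomeres of unnamed 2-cell embryos (11) were averaged as 1 embryo, and so were the 3 samples whose titles name embryo e1 of the marked series. The fit was tested on simulated data. Whether samples came from separate collections is not given, so p-values measure the spread between these samples. Python 3.11.15, numpy 2.4.6, pandas 2.3.3 and scipy 1.17.1 gave the other values. Named genes were Eif1a, the control genes, the 5 most alike in stage means, the 5 highest and 5 lowest rho in 2-cell blastomeres, and the study's 4 maternal and zygotic lists. Members and lists were chosen with earlier results of these data known. Alternatives were other control genes or none, median scaling, a floor at −10, undetected values as missing, other sample sets, blocks and leaving out each replicate; the split by the mark A and the removal of the 3 samples whose titles name no blastomere were chosen after seeing the data.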

Additional observations from a re-analysis of the deposited data

Results flagged for a closer look

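Of 14 groups of 4 to 10 values of Eif1a examined for a value far from the rest, 1 had such a value, and chance flags about 1 in 20. It was the lowest of the 8 embryos of the 2-cell stage on the normalized scale, at −1.12, whose gap to the next embryo was 0.57 of the whole range. This is a single sample labelled as a 2-cell blastomere whose title names only an embryo, with raw Eif1a of 13.16 and control genes at 14.28.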

How the results depend on the processing

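The rise of Eif1a from zygote to 2-cell stage kept its direction and its call under all alternatives run. On the normalized scale it ranged from 4.99 without normalization to 8.41 without Hnrnpr as control gene. The value of 4.99 pools raw blastomeres and whole embryos. When each replicate was left out, the rise lay between 7.28 and 8.18. In whole embryos its lowest value was 5.52, on raw values with the replicate block. Its highest was 8.36, which is not raw but relative to the control genes. With replicates left out, the raw rise in whole embryos ranged from 6.05 to 7.25. The change from MII oocyte to zygote ranged from −1.24 to −0.38 (normalized) and from −1.27 to −0.39 (raw) with replicates left out, never past the threshold.

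Later steps depended on the processing, and the cause was not tested. From the 2-cell to the 3-cell stage the difference turned to −0.42 without Ssu72 and to −0.17 without the samples whose titles name no blastomere, with a range of −0.12 to 0.40 when replicates were left out. From 4 to 8 cells the normalized difference passed the threshold with only the groups compared (0.78), with every sample as a replicate (1.24) and with the embryo as a random block (1.14), and the raw one with only the groups compared (1.18). Apart from these and the replicate block, the normalized difference stayed short of it, from 0.23 with whole embryos only to 1.25 with median scaling. From 8 to 16 cells it turned to −1.05 without normalization, −0.086 with median scaling, −1.56 with the deposited table and −0.0031 with every sample as a replicate. From 16 to 32 cells it turned to 0.19 without Ssu72, and ranged from −0.40 to 0.091 with replicates left out. Its lowest value under any alternative was −2.12. The raw changes of 3.02 and −2.02 passed the threshold with undetected values as missing, with only the groups compared and with the replicate block.

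Replicate numbers in the labels did not pair the samples: over 14 pairs of zygotes and 2-cell blastomeres, deviations from the group means had a median correlation of 0.001, none over 0.1. With the replicate block the rise was 8.00 (normalized) and 5.52 (raw), and the change from 4 to 8 cells was 1.45 and passed the threshold; the normalized count of calls from zygote to 2-cell was 100 against 107.

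Without normalization rho in 2-cell blastomeres turned to 0.40 for Tet3, 0.11 for Phf19, 0.52 for Ssu72, 0.21 for Creb3l2 and 0.35 for Setd1b. From zygote to 2-cell, 40 genes were higher and 79 lower with the deposited table, 60 and 47 without Hnrnpr, and 22 and 115 without normalization, where the median of all genes was −3.33.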
